A study of Bos taurus with 53 samples.

Results

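The genes described here are the cyclins, the cyclin-dependent kinases (CDKs) and the machinery that licenses and fires replication origins, together with the E2F factors, the CDC genes, and the Aurora, polo-like and BUB1 kinases of mitosis. They were chosen by symbol from the deposited table of bovine day 14 embryos, and 90 of its 24596 rows matched. All 90 had reads in at least 1 library. CDK4 and MCM4, which have no row of that symbol, were not analysed here. Cyclins switch on CDKs in turn: D-type cyclins with CDK4 or CDK6 and E-type cyclins with CDK2 free the E2F factors from RB1 and carry the cell into S phase, and cyclin B with CDK1 starts mitosis. Before S phase the origin recognition complex and CDC6 load the MCM2 to MCM7 helicase on DNA, and CDC45 and the CDC7 kinase later turn it into an active fork. In the elongating ruminant embryo the trophoblast multiplies quickly ahead of implantation while the disc forms the body axis, so both parts hold cycling cells.

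Oocytes were matured in vitro in 1 of 3 media. CONTROL held no added fatty acid and no solvent, BASAL held 28 µM stearic, 23 µM palmitic and 21 µM oleic acid with 0.45% ethanol as the solvent, and HIGH PA differed from BASAL in its palmitic acid alone, raised to 150 µM. All embryos were then fertilised and cultured alike, placed in recipient cows, flushed on day 14, scored as spherical, ovoid or tubular and cut into embryonic disc (ED) and extraembryonic tissue (EX). The 53 libraries came from 30 embryos of 7 cows: 23 discs, of which 3 were CONTROL, 12 BASAL and 8 HIGH PA, and 28 EX samples, of which 4 were CONTROL, 14 BASAL and 10 HIGH PA. A further 2 HIGH PA embryos were left whole, and 23 embryos gave both parts. All CONTROL embryos came from the same cow, and those recovered from 1 cow after the same medium were taken to share a flush.

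Levels are given as normalised CPM, counts per 1000000 reads after trimmed-mean scaling, over the 51 libraries with at least 10000 reads (22 ED and 27 EX). Depth in these ran from 119116 to 6167850 exon reads in ED and from 340016 to 19533821 in EX. The members together held a median of 0.633% of the reads in ED (0.559% to 0.719%) and 0.591% in EX (0.410% to 0.667%). The summed level of 5 disc markers had a median of 618 CPM in ED and 0.375 in EX, and SOX2, NODAL and EOMES were at 0 in 24 to 26 of the 27 EX libraries. The summed level of 5 trophectoderm markers was 1679 CPM in ED and 3236 in EX at the median, and GATA3 was nearly level (55.0 against 58.1 CPM), so the ED libraries held trophectoderm RNA as well. The summed level of 5 hypoblast markers was also higher in ED, at a median of 197 CPM against 24.5 in EX. Of the maternal and blood markers PTPRC and HBB were at 0 in at least 20 ED and in 27 EX libraries, while CD74 had a median of 7.66 CPM in ED and 0 in EX. The part of these other cells in the tissue differences below was not tested. In bulk tissue fewer cells of a type and less RNA per cell cannot be told apart.

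Per kilobase of exon the replicative helicase and the mitotic cyclin CCNB1 were among the most abundant members in both parts. In ED the order of medians began with CDC42, a small GTPase outside the cycle proper (155 normalised CPM per kb), MCM7 (143), CCNG1 (138), CCNB1 (134), MCM5 (124) and CDC20 (106). In EX it began with CDC42 (207), CCNB1 (168), MCM7 (138), CDC20 (130), CCNY (129) and CCNG1 (119). The helicase subunits MCM2, MCM3 and MCM6 stood at 96.9, 77.1 and 80.2 per kb in ED and at 87.6, 83.9 and 76.9 in EX. Neighbours in these orders differed by less than the SD over libraries, except that in EX CDC42 stood above CCNB1, and CCNB1 above MCM7, by more than that. At the other end CCNA1, a cyclin of the germ line, CCNO and CDC20B had a median of 0 in both parts, E2F2 stood at 0.350 and 0.131 per kb, and CDK18 stood at 0.105 in EX.

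In ED the helicase subunits MCM2, MCM6 and MCM3 varied least of the members. Across the 22 ED libraries the coefficient of variation of the normalised level was 9.98% for MCM2, 10.4% for MCM6, 10.8% for MCM3 and 12.7% for CCNA2, the cyclin of S phase and G2. Across the 27 EX libraries it was 13.8% for MCM2, 13.5% for MCM7 and 12.0% for CCNA2, and 20.4% and 22.3% for MCM3 and MCM6. CDK1 varied by 23.8% in ED and 24.3% in EX.

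The 2 parts of the same embryo differed in which G1 cyclins and which loading factors they carried. EX held more of the G1 regulators CCND2, CDK6, CCNE2, CCND3 and CCNE1, of the loading factors CDC6 and ORC6, and of CDK1, CCNB1 and AURKA. ED held more CCND1, E2F5, CDC25B, CDC14B, PLK2 and BUB1B, and more of the kinases CDK5, CDK17, CDK18 and CDK20. Of the 85 members tested, 41 were called, 23 higher and 18 lower in EX. The test was edgeR's quasi-likelihood F-test, blocked on the embryo, at a Benjamini-Hochberg adjusted p under 0.05. Of all 11921 genes tested, 55.3% were called, 24.5% higher and 30.8% lower, so the share of members called was not above that of all genes. Their median log2 fold change was 0.03, against -0.01 over all genes. With DESeq2 size factors 31 members were higher and 15 lower, and with DESeq2 itself 31 and 16. The share of all genes called in those fits is not given here, so these counts cannot be read as a result about the members.

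**Figure D1:**
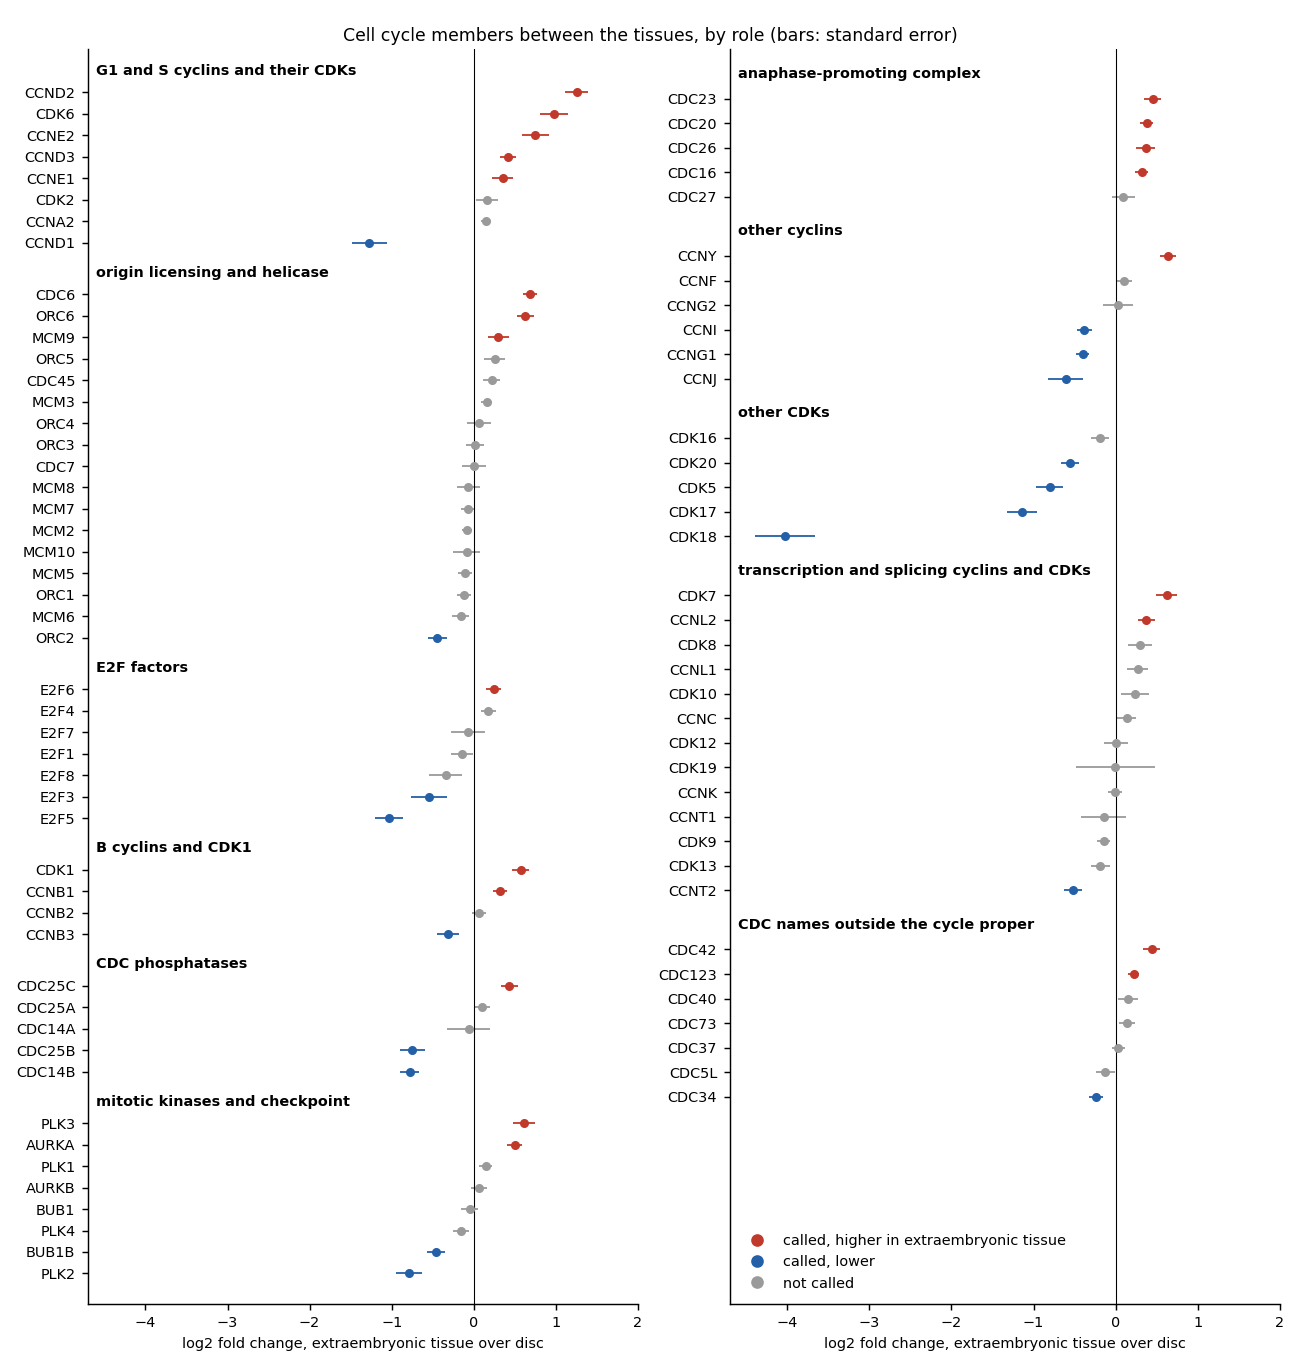
Log2 fold change of extraembryonic tissue over disc for the 85 members tested, grouped by role, with the standard error as bars. Red and blue points passed the adjusted threshold, and the MCM subunits of the helicase lie close to 0 while CCND1 and CCND2 lie far apart on either side.

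Sequencing lane moved with tissue. Of the 22 ED libraries 10 were run in lane 1, 10 in lane 2 and 2 in lane 3, and of the 27 EX libraries 2 were run in lane 1, 1 in lane 2, 8 in lane 3, 12 in lane 4 and 4 in lane 8, so the effects of lane and of tissue cannot be told apart. With lane as a term no member was called (0 of 85, with 5 at an unadjusted p under 0.05) and 3.23% of all genes were. The log2 fold change kept its sign in 35 of the 41 called members in that fit, at 0.54 for AURKA, 0.76 for CCNY, 0.56 for CDC6, -1.09 for E2F5 and 0.54 for CCND2. Some that kept it came out much smaller. CDK18 went from -4.03 to -1.96, CDK1 from 0.57 to 0.25, CCNB1 from 0.31 to 0.09, ORC6 from 0.63 to 0.30 and MCM9 from 0.30 to 0.008. The sign was the opposite in CCNB3, CCND3, CDC20, CDC34, E2F3 and E2F6. The sole embryo with both parts in the same lane (lane 2, ED HIGH PA replicate 1 and EX HIGH PA replicate 5) had 19 of the 23 called-higher members higher in EX and 16 of the 18 called-lower members lower. That embryo was also in the fit that made the calls, so its values are no separate test of them. The ED and EX values overlapped in all 85 members tested, and 0.0168% of all genes tested had none. Of the 41 calls, 34 were kept under all 10 of the other settings tried, 20 higher and 14 lower.

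Among the D-type cyclins, which couple growth signals to the cycle, CCND2 and CCND1 changed in opposite directions. CCND2 (ENSBTAG00000016649, UMD3.1 chromosome 5, 106253906 to 106276819) had 6.34 normalised CPM in the lowest ED library, 36.4 at the median and 121 in the highest, against 32.2, 90.1 and 141 in EX. The ranges overlapped, but EX was the higher part in 21 of 22 embryos. The log2 fold change was 1.25 (SE 0.14, adjusted p 1.26e-08), or 2.38-fold. CCND1 (chromosome 29, 47544379 to 47553820) ran from 0 to 15.9 normalised CPM in ED with a median of 6.78, and from 0.479 to 11 in EX with a median of 3.21. EX was the higher part in 2 of 22 embryos, and the log2 fold change was -1.27 (SE 0.22, adjusted p 1.10e-05). CCND3 was higher in EX by 0.42 on the log2 scale (SE 0.10, adjusted p 6.68e-04) and higher in 19 of 22 embryos. Per kilobase CCND2 was the leading D-type cyclin in both parts, at 37.5 in ED and 92.7 in EX, and CCND1 the lowest, at 5.82 and 2.75.

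CDK6, the kinase partner of the D-type cyclins (chromosome 4, 9792302 to 10039520), followed CCND2 in direction. Its normalised CPM ran from 0 to 28.5 in ED with a median of 5.24 and from 3.48 to 19.2 in EX with a median of 10.8. The highest ED value came from ED CONTROL replicate 1, a library of 284848 reads. EX was the higher part in 21 of 22 embryos, with a log2 change of 0.98 (SE 0.17, adjusted p 1.20e-05). Fitted within each medium the CDK6 difference was 1.20 in BASAL (SE 0.22), 0.97 in HIGH PA (SE 0.28) and 0.18 in CONTROL (SE 0.41), and these were not tested against each other. CCND2 stood at 1.13, 1.39 and 1.42 in the same order.

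The E-type cyclins, which activate CDK2 at the start of S phase, were both higher in EX. CCNE2 rose from a median of 6.80 normalised CPM in ED (0 to 14.3) to 13.2 in EX (2.74 to 19.0), a log2 change of 0.75 (SE 0.16, adjusted p 2.65e-04) with EX higher in 20 of 22 embryos. CCNE1 rose by 0.35 (SE 0.13, adjusted p 0.0208). CDK2 and CCNA2 were not called, with 95% intervals of -0.12 to 0.43 and 0.01 to 0.28 on the log2 scale. CCNA2 was higher in EX in 18 of 22 embryos, with an adjusted p of 0.0527, and it was called in 9 of 11 alternative settings. In all, 5 of the 8 G1 and S cyclins and kinases tested were higher in EX and 1, CCND1, was lower, where 24.5% of all genes were higher and 30.8% lower.

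**Figure D2:**
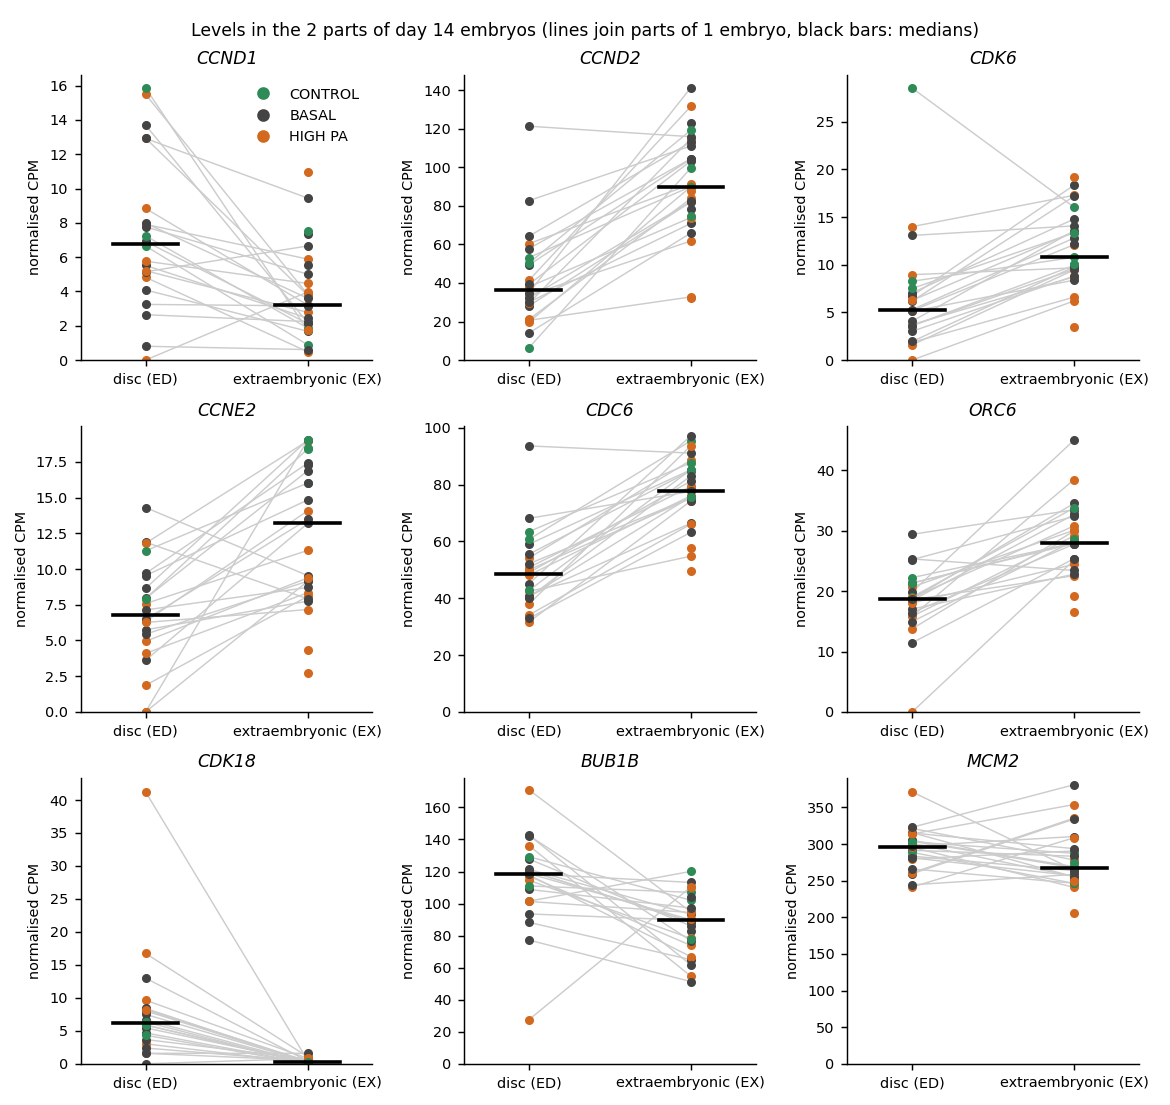
Normalised CPM of 9 members in each ED and EX library with at least 10000 reads, coloured by medium. Grey lines join the parts of 1 embryo and black bars are medians; CCND2, CDK6, CDC6 and ORC6 were higher in EX in 21 of 22 embryos each, while MCM2 was so in 8.

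Of the 17 members of replication licensing, 3 were higher in EX (CDC6, ORC6 and MCM9) and 1 lower (ORC2), where 24.5% and 30.8% of all genes were. CDC6, which loads the helicase on origins bound by the recognition complex (chromosome 19, 41185974 to 41196948), ran from 31.7 to 93.6 normalised CPM in ED with a median of 48.5, and from 49.5 to 97.2 in EX with a median of 77.6. EX was the higher part in 21 of 22 embryos, and the log2 fold change was 0.68 (SE 0.08, adjusted p 6.01e-08). ORC6, the smallest recognition subunit (chromosome 18, 15066960 to 15075288), went from a median of 18.7 (0 to 29.4) to 28.1 (16.5 to 45.1), a log2 change of 0.63 (SE 0.11, adjusted p 1.26e-05). ORC2, another subunit, was lower in EX (log2 fold change -0.44, SE 0.11, adjusted p 0.00126), with medians of 35.3 in ED and 29.1 in EX. MCM9, a helicase relative that acts in repair, was higher by 0.30 (SE 0.13, adjusted p 0.0463), and with lane as a term it stood at 0.008.

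No subunit of the replicative helicase was called. MCM2 (chromosome 22, 60565324 to 60581052) ran from 241 to 371 normalised CPM in ED with a median of 296 and from 206 to 381 in EX with a median of 268. The groups lay over each other, and the 95% interval of the log2 difference was -0.21 to 0.04. The intervals were 0.02 to 0.30 for MCM3 (adjusted p 0.0501), -0.28 to 0.06 for MCM5, -0.37 to 0.05 for MCM6 and -0.25 to 0.11 for MCM7. MCM10 and CDC45, which help the helicase fire, had intervals of -0.42 to 0.26 and 0.00 to 0.43. MCM3 was called in 7 of 11 alternative settings, and MCM5 in 1. Fitted within each medium, MCM3 was called in BASAL (log2 fold change 0.24, SE 0.09) and MCM5 in CONTROL (-0.62, SE 0.20). ORC1, ORC3, ORC4, ORC5 and CDC7 were not called either. MCM8, a repair relative, stood at medians of 9.42 and 9.15.

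Of the 7 E2F factors tested, E2F6, a repressor that acts without RB1, was higher in EX (log2 fold change 0.24, SE 0.09, adjusted p 0.0291), and E2F5 and E2F3 were lower. E2F5, a repressor held by the RB1 relatives, had medians of 12.1 normalised CPM in ED and 5.65 in EX (log2 fold change -1.03, SE 0.17, adjusted p 8.92e-06), and 82.6% of its reads were uniquely placed. E2F3, an activator, was low throughout (medians 4.25 and 3.21), and its call was lost under 7 of those 10 settings. E2F1, E2F4, E2F7 and E2F8 were not called.

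The B cyclins, the CDC phosphatases and the mitotic kinases each held members called in both directions. CDK1, the mitotic kinase, rose from a median of 64.7 normalised CPM in ED (34.9 to 89.9) to 98.3 in EX (61.2 to 132), a log2 change of 0.57 (SE 0.10, adjusted p 3.09e-05) seen in 20 of 22 embryos. CCNB1, its cyclin, rose by 0.31 (SE 0.08, adjusted p 0.00217), while CCNB2 was not called (medians 49.9 and 49.7) and CCNB3, a cyclin best known from germ cells, was lower (log2 fold change -0.31, SE 0.13, adjusted p 0.0475). The CCNB3 call was kept in 4 of 10 other settings, EX was the higher part in 10 of 22 embryos, and in CONTROL the log2 fold change was 0.34 (SE 0.37). Among the CDC25 phosphatases, which strip the inhibitory phosphates from CDKs, CDC25C was higher (0.43, SE 0.10), CDC25B lower (-0.75, SE 0.15) and CDC25A not called (0.10, SE 0.10). CDC14B, a phosphatase of the CDC14 family, was lower in EX in 21 of 22 embryos (log2 fold change -0.78, SE 0.11, adjusted p 1.16e-06).

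AURKA, the kinase of the spindle poles, rose from a median of 124 normalised CPM in ED to 173 in EX (log2 fold change 0.50, SE 0.09, adjusted p 3.01e-05), whereas AURKB, the kinase of the chromosome passenger complex, stood at 66.2 and 63.8. BUB1B, a spindle checkpoint protein, was lower in EX (medians 118 and 89.5, log2 fold change -0.46, SE 0.11, adjusted p 6.96e-04), and its partner BUB1 was not called (medians 127 and 124). Of the polo-like kinases PLK3, a stress response kinase, was higher (0.61, SE 0.13) and PLK2 lower (-0.79, SE 0.16), while PLK1 and PLK4, which drive mitosis and centriole copying, were not called. Of the 5 tested parts of the anaphase-promoting complex and its activator, 4 were higher in EX, where 24.5% of all genes were. These were CDC20, CDC16, CDC23 and CDC26, and with lane as a term they stood at -0.03, 0.04, 0.53 and 0.25. CDC20, the activator, rose from a median of 188 to 231 (log2 fold change 0.38, SE 0.08, adjusted p 2.21e-04).

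Outside the core cycle, 4 of the 5 other CDKs tested were lower in EX, where 30.8% of all genes were, and the fifth, CDK16, was not called. CDK18, a little studied relative of CDK16 and CDK17 (chromosome 16, 3099022 to 3108506), had the largest change of all members tested. It ran from 0 to 41.2 normalised CPM in ED with a median of 6.12 and from 0 to 1.58 in EX with a median of 0.295, a log2 change of -4.03 (SE 0.36, adjusted p 1.00e-10). EX was the higher part in 1 of 22 embryos, and the highest disc, ED HIGH PA replicate 5, was a library of 119116 reads. CDK17 (log2 fold change -1.14, SE 0.19) and CDK5, a kinase of neurons (-0.81, SE 0.16), were lower as well. Among the cyclins and CDKs of transcription, CDK7, which also activates other CDKs, and CCNL2 were higher and CCNT2 lower, and the other 10 of 13 were not called. Of the 6 other cyclins CCNY, a membrane-bound cyclin, was higher (0.64, SE 0.10), and CCNG1, CCNI and CCNJ were lower. CDC42 and CDC123 were higher and CDC34 lower among the 7 CDC genes outside the cycle proper.

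In the library labelled ED BASAL replicate 12 the 5 disc markers had 0 reads, and its member levels lay mostly with EX. It had 121 normalised CPM of CCND2, 93.6 of CDC6, 29.4 of ORC6 and 14.3 of CCNE2, each above every other disc, and 0 of CDK18, below every other disc. For 31 of the 41 called members its value was nearer to the EX median than to the median of the other discs. Without it 42 members were called, 25 higher and 17 lower, and the share of all genes called in that fit is not given here.

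The 2 undissected HIGH PA embryos, 1 spherical and 1 ovoid, which entered no test, had disc markers summing to 22.3 and 28.4 CPM. Their CCND2 stood at 45.4 and 70.0 normalised CPM, their CDC6 at 58.1 and 66.7, and their CDK18 at 0.668 and 0.

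The regulators and partners of these genes, from 3 lists outside the members, were called in both directions too, and each list had a smaller share called than the 55.3% of all genes. Of 19 CDK inhibitors and regulators tested, 4 were higher in EX and 1 lower, where 24.5% and 30.8% of all genes were. TFDP2, the dimer partner of the E2F factors, was higher (log2 fold change 0.66, SE 0.12), as were CKS1B, a CDK subunit (0.45, SE 0.13), and CDKN3, a CDK phosphatase (0.70, SE 0.20), while the inhibitor CDKN1C was lower (-0.82, SE 0.26). Of 29 replication partners 6 were higher and 5 lower. The primase subunits parted, PRIM2 being higher (0.46, SE 0.08) and PRIM1 lower (-0.42, SE 0.10), and of the nucleotide enzymes TYMS (-0.38, SE 0.08) was lower while RRM2 (0.41, SE 0.10) was higher. CDT1, which works with CDC6, was higher by 0.31 (SE 0.08). Of 20 mitosis partners 5 were higher and 4 lower, with BUB3 (0.45, SE 0.07) and PRC1 (0.53, SE 0.12) higher and TOP2A (-0.94, SE 0.14) and NUSAP1 (-0.59, SE 0.10) lower. MKI67, the common proliferation marker, was not called (0.19, SE 0.14).

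Between the maturation media no member was called. In edgeR's quasi-likelihood test of HIGH PA against BASAL, 0 of 83 members were called in ED and 0 of 84 in EX, where 0% of all 11040 and 0% of all 10969 genes were called, and DESeq2 likewise called 0 members in each. At an unadjusted p under 0.05 stood 15 members in ED, where 9.09% of all genes did, and 6 in EX, where 4.84% did. For MCM2 the 95% interval of the log2 difference between HIGH PA and BASAL was -0.16 to 0.25 in ED and -0.24 to 0.20 in EX, and for CCNA2 it was -0.18 to 0.29 and -0.20 to 0.16. Low members were measured less closely, as with CCND1 at -0.53 to 1.26 in ED and -1.06 to 0.65 in EX. Of the 29 replication partners in ED, 23 had a log2 fold change above 0 for HIGH PA against BASAL (median 0.08, against 0.01 over all genes), 0 were called and 6 had an unadjusted p under 0.05.

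The members of lowest p in discs of HIGH PA against BASAL were CDK20, a kinase linked to cilia, and CCNG2, a cyclin that slows the cycle, both higher, and CCNL2 and CCND2, both lower. CDK20 had 18.7, 29.1 and 42.1 normalised CPM in the lowest, median and highest HIGH PA disc, against 11, 17.7 and 26 in BASAL, where the ranges overlapped in part. Its log2 fold change was 0.86 (SE 0.21, adjusted p 0.437). CCNG2 ran from 3.84 to 27.5 with a median of 15.4 in HIGH PA and from 1.76 to 17.3 with a median of 5.84 in BASAL (log2 fold change 1.41, SE 0.36, adjusted p 0.437). CCND2 ran from 19.7 to 60.4 with a median of 31.6 in HIGH PA and from 14.1 to 121 with a median of 39.3 in BASAL (log2 fold change -0.94, SE 0.29, adjusted p 0.451). The 121 was that of ED BASAL replicate 12, which had no disc marker reads, and the highest other disc had 82.8. Over 18 alternative settings the CCND2 log2 fold change ran from -1.24 to -0.54. CCNL2, a cyclin of splicing, stood at -0.54 (SE 0.15, adjusted p 0.441). The further members named by rank were CCNB3 at 0.65, CDK18 at 1.28, E2F4 at -0.46 and CDC23 at -0.50. The shallow ED HIGH PA replicate 5 was the lowest HIGH PA disc for CCNL2 and E2F4 and the highest for CDK18, and without it these 3 stood at -0.48, -0.31 and 1.05. Without the embryos of cow07, CDC23 alone was called (log2 fold change -0.87, adjusted p 0.0464), where 0.886% of all genes were.

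In EX the lowest p of HIGH PA against BASAL was that of CCND2, at -0.47 (SE 0.17, adjusted p 0.887). Its normalised CPM ran from 32.2 to 132 in HIGH PA with a median of 85.8 and from 65.9 to 141 in BASAL with a median of 104. CDK1, CDK6 and CCNE2 stood at -0.33, -0.41 and -0.42, and CCNB3, CDK19, CCNG1 and CDK20 at 0.30, 0.78, 0.34 and 0.30. The CDK1 medians were 81.3 in HIGH PA, 119 in BASAL and 122 in CONTROL, over ranges that overlapped. They take no account of shape, between which CDK1 was also called, as given below. HIGH PA had 4 ovoid, 2 spherical and 4 tubular EX libraries, BASAL 4 ovoid and 10 tubular, and CONTROL 1 ovoid and 3 tubular. Over 19 alternative settings, shape as a term among them, the CDK1 log2 fold change ran from -0.46 to -0.15, with 0 calls.

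**Figure D3:**
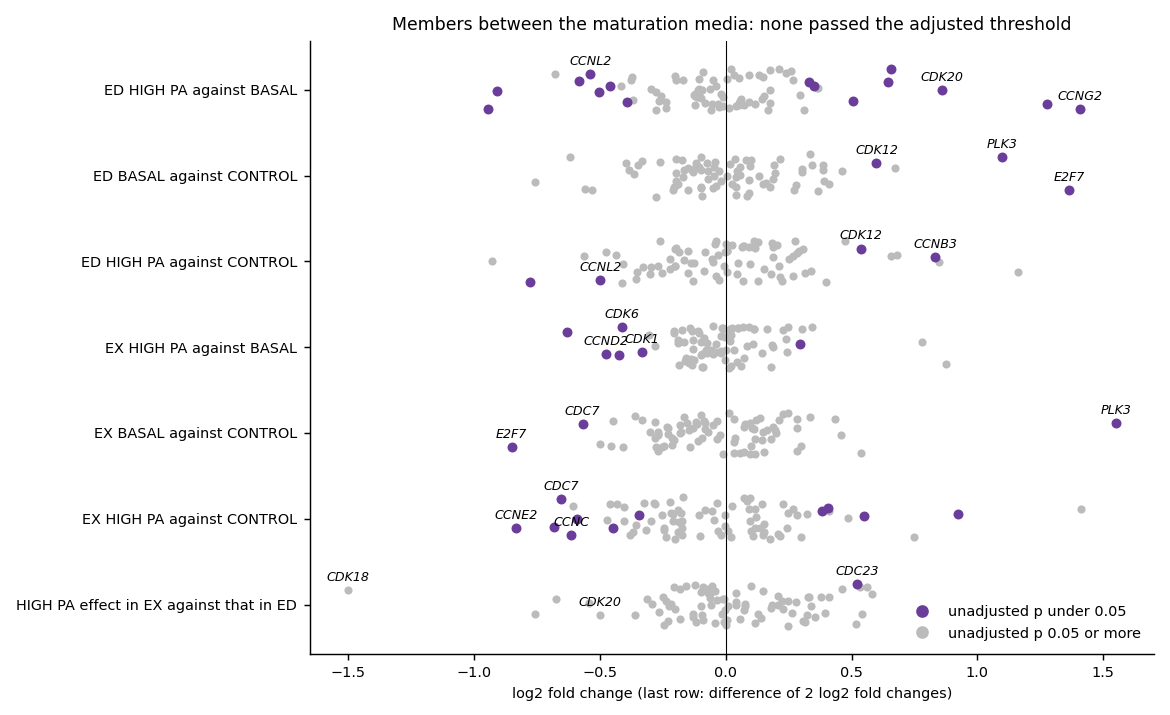
Log2 fold changes of all members tested in the 6 comparisons of media and in the comparison of the HIGH PA effect between tissues, each point a member. Purple points had an unadjusted p under 0.05 in edgeR's test, the 3 members of lowest p are named, and none passed the adjusted threshold.

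The effect of HIGH PA did not differ detectably between the tissues. Of 85 members 0 were called for the difference and 0% of all 11921 genes, by edgeR and by DESeq2 alike. CDC23, a subunit of the anaphase-promoting complex, was the single member at an unadjusted p under 0.05 (difference of log2 fold changes 0.52, SE 0.23, adjusted p 1.00). Of all genes 3.07% had such an unadjusted p. CDK18 and CCND2 stood at -1.50 (SE 0.75) and 0.58 (SE 0.33).

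Comparisons with CONTROL rested on 3 ED and 4 EX libraries of a single cow, and they share those libraries. In ED, 0 of 83 members and 0% of all genes were called for BASAL against CONTROL, with 3 members at an unadjusted p under 0.05, and 0 of 83 and 0% for HIGH PA against CONTROL, with 4. In EX the counts were 0 of 84 and 0% for BASAL against CONTROL, with 3 members, and 0 of 84 and 0% for HIGH PA against CONTROL, with 11. Of all genes, 3.43% and 4.21% in ED and 3.39% and 9.64% in EX had such an unadjusted p, in the same order. DESeq2 called 0 members in each of the 4.

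CDK12, a kinase of transcription elongation, had 41.2, 45.5 and 49.4 normalised CPM in the 3 CONTROL discs. The BASAL discs ran from 48.6 to 92.7 and the HIGH PA discs from 52.2 to 85.5, so that the HIGH PA and CONTROL ranges did not meet. Its log2 fold change was 0.60 for BASAL (SE 0.22) and 0.54 for HIGH PA (SE 0.21) against CONTROL, with an adjusted p of 1.00 in both by edgeR. Of 83 members tested, 2 did not overlap between these groups, and 1.11% of all genes did not. CCNL2 was the other of them, with no overlap between HIGH PA (13.7 to 50.6) and CONTROL discs (57.5, 59.3 and 72.9), at a log2 change of -0.50 (SE 0.20). E2F7, a repressing E2F, had 0, 1.03 and 2.89 in CONTROL discs and medians of 4.76 and 4.19 in BASAL and HIGH PA discs. Its log2 fold changes were 1.36 (SE 0.58) and 1.16 (SE 0.58), not called. The 0 was that of ED CONTROL replicate 1, a library of 284848 reads, where 1 read is a large step at this level.

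In EX, PLK3 had 9.73, 10.3, 10.3 and 12.8 normalised CPM in the 4 CONTROL libraries and 11.4 to 129 in BASAL (median 21.2), a log2 change of 1.55 (SE 0.43, adjusted p 0.881). CCNE2 had 16.0, 18.4, 18.5 and 19.0 in CONTROL and 2.74 to 19.0 in HIGH PA with a median of 8.74 (log2 fold change -0.83, SE 0.25, adjusted p 0.478). CDC7, the kinase that fires the helicase, stood at -0.57 in BASAL and -0.65 in HIGH PA against CONTROL, and ORC2 at -0.50 and -0.68. The CONTROL values of CDC7 were 29, 43.0, 45.2 and 56.9, and 3 of the 4 lay above the ranges of BASAL (15.8 to 42.7) and HIGH PA (20.1 to 40).

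Embryo shape, a measure of how far elongation has gone, was compared between ovoid and tubular embryos. In ED, the 8 ovoid and 15 tubular libraries gave 0 of 83 members and 0% of all genes called by edgeR. At an unadjusted p under 0.05 stood 5 members, where 7.3% of all genes did, and DESeq2 called 0 members. The lowest p was that of PLK2, at a log2 change of -0.77 (SE 0.21, adjusted p 0.372). Its normalised CPM ran from 46.2 to 89.9 in ovoid discs and from 65.1 to 226 in tubular discs. CCNI and CDC14B stood at -0.50 and -0.38, and CCNB1 and AURKA at 0.31 and 0.35.

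In EX, 12 of 84 members were called between 9 ovoid and 17 tubular libraries, 6 higher and 6 lower in ovoid embryos, where 12.7% of all genes were called. The higher members were E2F4, CDK9, PLK3, CDC34, CCNL2 and CDC20. The lower members were CDC14B, CDK1, CDC27, CCNG2, CCNE1 and CCNI. None of the 17 licensing members was called in this fit, and by role the 12 were spread over 9 of the 11 groups. The median log2 fold change of the members was -0.05, against 0.00 over all genes. The count depended on the terms and embryos in the fit. With recipient cow as a block, with lane as a term, or without the embryos of cow07, cow66 or cow813, 0 members were called. The share of all genes called in those fits is not given here.

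Some column names carry a 2 after the sample name, whose meaning the labels do not explain, and this mark moved with shape: 5 of the 9 ovoid libraries had it and 1 of the 17 tubular ones. The marked ovoid libraries had a median of 10.7% mitochondrial reads, against 4.11% in the unmarked ovoid and 4.12% in the unmarked tubular libraries. The marked tubular library, EX BASAL replicate 11, had 20.9% mitochondrial reads and the lowest share of reads from the members (0.410%). With the mark as a term 0 members were called, and the share of all genes called in that fit is not given here. Without the marked libraries CDK9 (log2 fold change 0.37, adjusted p 0.0271) and CDK1 (-0.52, adjusted p 0.0397) were called, where 2.11% of all genes were. Without EX BASAL replicate 11 alone, 33 members were called, all 12 among them, where 39.5% of all genes were, and without the embryos of cow13, to which that library belongs, 37 members and 37.4% of all genes were. Licensing members were then called in both directions. Without EX BASAL replicate 11, MCM5 (0.27) and MCM7 (0.22) were higher in ovoid embryos. MCM6 (-0.33), MCM8 (-0.45), MCM10 (-0.59) and ORC4 (-0.46) were lower. Without the embryos of cow13 these were called again, with MCM2 (0.23) and MCM3 (0.25) higher and CDC7 (-0.49) lower. Without the embryos of cow72 the count was 30, with 27.5% of all genes.

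**Figure D4:**
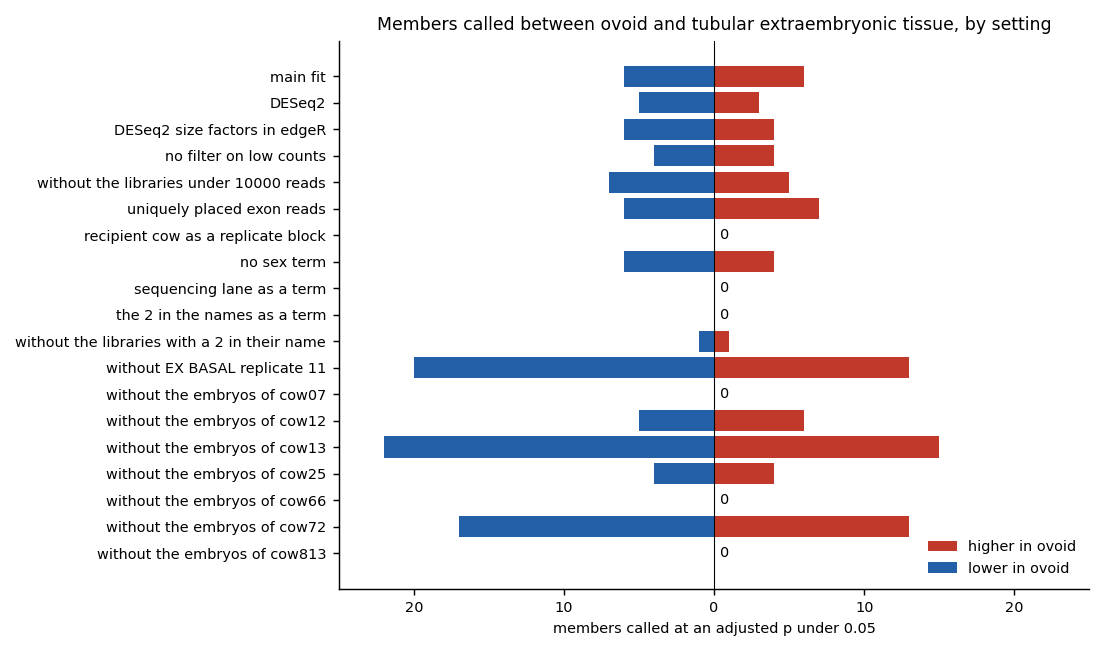
Members called between ovoid and tubular EX libraries in the fit as designed and under each alternative, with those higher in ovoid embryos to the right and those lower to the left. The count ran from 0 to 37 with the libraries and terms in the fit.

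CDK1 ran from 61.2 to 98.3 normalised CPM in ovoid libraries with a median of 80.6 and from 69.1 to 132 in tubular ones with a median of 119, and the 4 unmarked ovoid libraries had a median of 75.9. The ovoid libraries lay in the lower part of the tubular range or below it. The log2 fold change was -0.46 (SE 0.12, adjusted p 0.0180). CDK9, a kinase of transcription elongation, ran from 124 to 217 in ovoid libraries with a median of 147 and from 98.6 to 183 in tubular ones with a median of 109, and the unmarked ovoid libraries had a median of 144. Its log2 fold change was 0.51 (SE 0.11, adjusted p 0.00939).

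E2F4, a repressing E2F of resting cells, had a median of 112 normalised CPM in ovoid (98.3 to 134) and 88.1 in tubular libraries (68.3 to 109), a log2 change of 0.41 (SE 0.09, adjusted p 0.00866). CDC14B had 14.3 (10.3 to 24.7) against 25.7 (15.3 to 32.4), a log2 change of -0.72 (SE 0.16, adjusted p 0.0107), and unmarked ovoid libraries had a median of 16.6. CCNL2 had a median of 95.1 in the marked and 64.7 in the unmarked ovoid libraries, beside 64.1 in the tubular ones. CCNG2 had 8.33 in the marked and 3.80 in the unmarked ovoid libraries, beside 9.21 in the tubular ones. CCNE1 stood at 29.5, 40.1 and 48.3 in the same order. The part of the mark in these differences was not tested for single members.

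**Figure D5:**
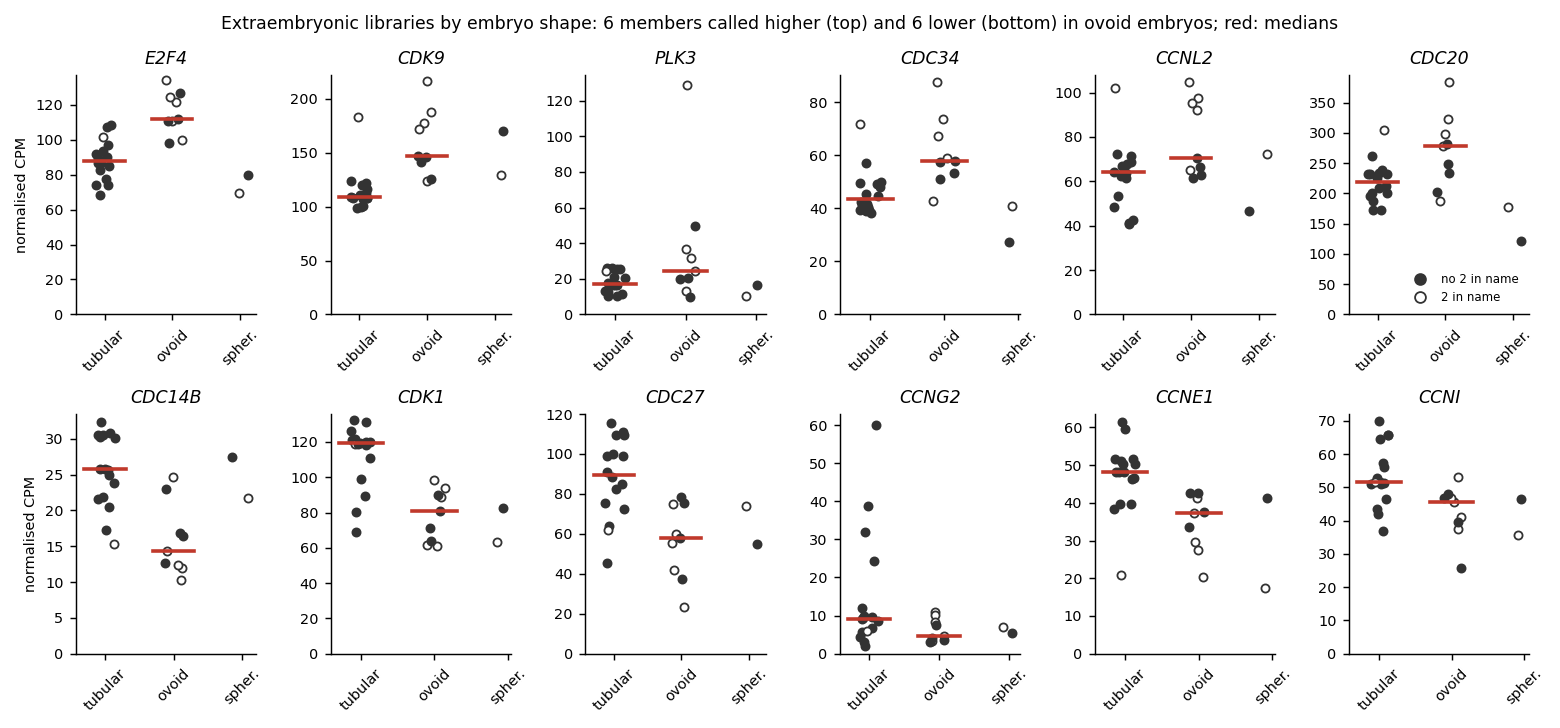
Normalised CPM of the 12 members called between ovoid and tubular EX libraries, by embryo shape, with the EX libraries of 2 spherical embryos for comparison. Open points are libraries with a 2 in their column name, 5 of them ovoid, and red bars are medians of the tubular and ovoid libraries; every panel shows overlapping groups.

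Of the 3 spherical embryos, all HIGH PA and the least elongated, 2 gave EX libraries, too few to test, and 1 was left whole. The EX values of CDK1, 63.4 and 82.3 normalised CPM, lay in the ovoid range. The EX values of E2F4, 69.5 and 79.6, and of CDC20, 121 and 178, lay below every ovoid EX library. Both spherical EX libraries were run in lane 1, which held no other EX library, so shape and lane cannot be told apart here. EX HIGH PA replicate 9 had 340016 reads, and EX HIGH PA replicate 10 has the 2 in its column name. The whole spherical embryo, which also holds disc, had 80.2 of CDK1, 104 of E2F4 and 251 of CDC20. Among the regulators and partners, MYBL2, an activator of mitotic genes, was higher in ovoid EX libraries (0.66, SE 0.14), CDCA8 of the passenger complex was higher (0.32, SE 0.10), and the spindle motor KIF11 (-0.58, SE 0.14) and the cytokinesis factor ECT2 (-0.58, SE 0.17) were lower.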

How the data were processed

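Bulk RNA sequencing of single embryo parts (stranded mRNA libraries, paired reads of 50 bases, 12 samples per lane, per the labels' protocols) was deposited as read counts per gene on UMD3.1, with exon, intron and uniquely placed counts for every library. The authors used DESeq2 1.10.1, per the submitters' processing notes; these sources name no aligner. Columns were matched to samples by name, and 0 were left unmatched.

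Exon counts were tested with edgeR 4.0.16 in R 4.3.3 (trimmed-mean scaling, filterByExpr, quasi-likelihood F-test, Benjamini-Hochberg adjustment over all features tested). Both parts of an embryo were compared with the embryo as a block, media and shape within a part with sex as a term. Standard errors are the log2 fold change over the root of F, from which the 95% intervals were taken. The 2 libraries under 10000 reads stayed in the fits and were left out of printed levels. EX HIGH PA replicate 9, whose sex was not determined, entered no fit that had a sex term. DESeq2 1.42.0 and other scalings, filters, blocks and left-out libraries were alternatives. The scripts were tested on simulated data.

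Embryos of a cow are not numbered pairs. In the comparisons blocked on the embryo, p-values measure the spread over embryos of the difference between EX and ED. In the media and shape comparisons they measure the spread between embryos, and embryos of the same cow were treated as independent. Cow as a block was an alternative setting, and it changed the count for shape in EX as given above. Members, roles and partner lists were chosen with earlier results of these data known. Genes were named by a rule: core members and those of lowest p or largest change in the tissue comparison, called members or the 4 of lowest p in each direction elsewhere, and partners by lowest p. Other names complete a role group or a count. The values of 1 partner gene are not reported here.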

Additional observations from a re-analysis of the deposited data

Results flagged for a closer look

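Among 40 groups of 4 to 10 member values, 7 had a library whose gap to its nearest neighbour was large against the range of its group. Chance gives about 1 in 20 for independent normal values. These members were named by low p in the same libraries, and the groups share libraries, so the count cannot be set against that rate. ED HIGH PA replicate 5, a library of 119116 reads, was the lowest HIGH PA disc for CCNL2 (13.7 normalised CPM, next 40.7) and for E2F4 (6.87, next 70.6), and the highest for CDK18 (41.2, next 16.7). EX CONTROL replicate 4 was the lowest CONTROL library for CDC27 (75.3, next 109) and the highest for CDK16 (75.3, next 47.7). It came from the only ovoid and only female CONTROL embryo, and the part of shape and sex in these values was not tested. EX CONTROL replicate 2 was the highest CONTROL library for CDC45 (37.4, next 29.8). EX HIGH PA replicate 9, a spherical embryo with 340016 reads that entered no fit with a sex term, was the highest HIGH PA library for CCNG1 (977, next 535). The 535 was that of EX HIGH PA replicate 10, the other spherical EX library.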

How the results depend on the processing

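Of 1741 values of named members under alternative settings, 1540 kept their direction and their side of the threshold, 134 lost the call, 35 gained it and 32 changed sign, the cause of which was not tested. In the tissue comparison lane as a term left 0 members called, kept the sign of 35 of the 41 called ones (AURKA 0.54, CDK7 0.78, CDK17 -0.88, CCND1 -0.87), and gave log2 fold changes of the opposite sign of -0.20 for AURKB, 0.19 for BUB1, -0.24 for CCNB2, -0.35 for CCND3, -0.0294 for CDC20, -0.25 for CDC45, -0.0280 for CDK2, 1.24 for E2F3, -0.22 for E2F6, 0.39 for E2F7, 0.15 for MCM10, -0.19 for MCM3, -0.0973 for ORC3 and 0.0721 for PLK4. Without the libraries of mark 2 the values were -0.16 for AURKB, -0.0867 for CCNB2, 0.12 for E2F7, 0.00475 for E2F8, 0.22 for MCM10, 0.0115 for MCM6, -0.0707 for ORC3 and -0.00860 for PLK1. MCM10 stood at 0.00378 with DESeq2 and at 0.0108 without the embryo as a replicate block, BUB1 at 0.0210 with DESeq2 size factors and CDC7 at -0.00502 from uniquely placed reads. Between leaving out ED HIGH PA replicate 5 and leaving out the libraries under 10000 reads with ED BASAL replicate 12, CDC7 ran from -0.0184 to 0.0899, E2F7 from -0.0424 to 0.0102, MCM10 from -0.109 to 0.00339 and ORC3 from -0.00195 to 0.0630. With recipient cow as a replicate block in ED by shape, CDC25B stood at 0.19 and CDC73 at -0.10. Leaving out a cow or library gave 0 to 1 members called for HIGH PA against BASAL in ED and 0 to 37 for shape in EX. For shape in EX the count was 0 with cow as a replicate block, 0 with lane, 0 with mark 2 as a term and 2 without the libraries of mark 2. The replicate block by cow changed no call of the media comparisons. The terms for lane and mark 2 and the left-out cows and libraries were chosen after seeing the data. Depth limits the low members most, as 1 read is a large step in the shallowest discs.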
